A study of Rattus norvegicus with 27 samples.

Results

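The SOX transcription factors Sox2, Sox4, Sox9, Sox10 and Sox11 were followed from embryonic day 18 (E18) to postnatal day 25 (P25) in maturing acinar cells of the rat parotid. The members were every probe set that the array annotation pairs with 1 of these 5 genes, and they numbered 13 of the 31042 probe sets tested. Sox4 had 7 of them, Sox2 had 4, and Sox10 and Sox11 had 1 each. No probe set was paired with Sox9 in that annotation, so Sox9 has no value here. The parotid is a serous salivary gland, and its acinar cells were isolated by laser capture microdissection from Sprague Dawley rats of 9 ages, E18, E20, P0 (the day of birth), P2, P5, P9, P15, P20 and P25, with 3 arrays per age and 27 in all. The labels name no treatment and no genotype other than the strain, which all ages share. Per the study's methods the samples of an age came from separate litters. Whole heads were cut until P5 but dissected glands from P9 on. Every comparison of stage 3 or 4 with stage 1 or 2 thus cannot be told apart from that change of preparation. Values are log2 signals summarised per probe set by robust multi-array average (RMA), in which 1 unit is a factor of 2, and the ages were also grouped by the study's 4 stages: stage 1 runs from E18 to P0 (9 arrays), stage 2 is P2 plus P5, stage 3 is P9 plus P15, and stage 4 is P20 plus P25 (6 arrays each of the last 3). The study drew these stages on the same arrays.

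SOX proteins are transcription factors that share the HMG box of SRY, a domain that binds the minor groove of short sites around ACAAT and bends the DNA. Sox4 and Sox11 belong, with Sox12, to the C group, which in mouse is active in embryonic neural, mesenchymal and epithelial precursors. Sox9 and Sox10 belong to the E group. In mouse salivary glands Sox9 marks the distal bud progenitors and Sox10 the progenitors of acinar, myoepithelial and intercalated duct cells. Sox10 also acts in Schwann cells and melanocytes. Sox2, of the B group, is a factor of pluripotent cells and of salivary progenitors in the mouse.

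Signal from markers of other tissues differed between the captures, although the study's methods state that caps were inspected by microscope and kept only if free of other cells. Acinar markers (9 of 10 listed genes measured) averaged 12.19 to 12.61 log2 units per array in stage 4, against 5.23 to 7.61 in stage 1, so the acinar programme was low in the earliest arrays. Fibroblast markers (9 genes) averaged 8.87 to 9.86 in stage 4, against 10.06 to 11.30 in stage 1. Skeletal muscle markers reached 12.18 in P9 replicate 3. In stage 1 they were highest in replicate 1 of E18 (11.56), of E20 (11.70) and of P0. They averaged 5.65 to 9.65 in the other arrays of stage 1. E18 replicate 1 was the highest stage 1 array for cartilage and bone (9.40) and for neuron markers (6.60). Hair follicle and epidermis markers (6 of 10 listed genes measured) averaged 7.29 to 9.69 in stage 2 (median 8.53), against 4.57 to 8.70 in stage 1 (median 5.66). In stage 1 the hair follicle and epidermis average was 8.70, 8.68 and 8.46 in replicate 1 of E18, E20 and P0. It was 4.57 to 5.89 in the other arrays of stage 1. The stage 1 arrays highest for muscle were thus also the highest for these markers. The hair follicle and epidermis average joined genes that moved apart. Krt25 read 5.73 to 12.90 in stage 2 and 3.90 to 4.99 in stage 1, and Tchh and Krt71 were also mostly higher in stage 2. Krt1 read 13.45, 13.20 and 12.62 in replicate 1 of E18, E20 and P0, and 13.34 in P5 replicate 2. It read 4.23 to 6.95 in the other arrays of both stages. Krt10 and Lor were likewise highest in the same arrays as Krt1. Sox11, described below, fell between stage 1 and stage 2. In bulk captures fewer cells of a type and less RNA per cell cannot be told apart, and the part of these other tissues in the SOX changes was not tested beyond the fits with marker levels as covariates given further on.

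Promoter sequence was held for Sox11 and Sox2 of the 5 genes. The 250 bases before the RefSeq transcription start are shown for both. In stage 4 against stage 1 the Sox11 probe set fell and Sox2 1381874_at rose, while the other Sox2 probe sets were not called. The Sox11 stretch is at chr6:49738795-49739044 on the minus strand and the Sox2 stretch at chr2:119464881-119465130 on the plus strand of GRCr8. Capitals mark CCAAT and GGGCGG, or their reverse complements.
Sox11: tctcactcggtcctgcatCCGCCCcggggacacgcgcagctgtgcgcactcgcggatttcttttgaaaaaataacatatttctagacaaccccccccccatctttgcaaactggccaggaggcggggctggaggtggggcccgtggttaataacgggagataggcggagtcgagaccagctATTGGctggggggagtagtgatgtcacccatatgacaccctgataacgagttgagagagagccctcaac
Sox2: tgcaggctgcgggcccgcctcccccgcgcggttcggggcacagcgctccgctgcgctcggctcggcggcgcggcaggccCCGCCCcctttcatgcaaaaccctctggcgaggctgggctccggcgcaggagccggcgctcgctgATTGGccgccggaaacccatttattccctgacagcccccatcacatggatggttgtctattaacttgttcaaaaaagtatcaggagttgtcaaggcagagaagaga
Each stretch held 1 CCAAT, and 34% of 33465 such stretches in the RefSeq table held at least 1 on either strand. Each also held 1 GGGCGG, against 30.5% of all stretches. Neither held TATAAA (12.9% of all), the SOX core ACAAT (30% of all) or CATTCC (12.1%), the core of TEAD sites on either strand. GC content was 56.8% for Sox11 and 64.4% for Sox2, beside a median of 51.2%. These are matches of letters, not binding sites.

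The first question was which SOX probe sets varied with age at all. In the moderated F test over the 9 ages 7 of 13 passed an adjusted p of 0.05, against 24.5% of all probe sets. They were the single Sox11 probe set, 5 of 7 for Sox4 and 1 of 4 for Sox2. Sox10 was not among them (adjusted p = 0.0975). A quadratic trend in age passed for 4 of 13, against 3.77% of all probe sets. The curvature was positive for Sox11 (3.33 ± 0.62, coefficient ± SE in log2 units on an orthogonal polynomial), whose fall came early. It was negative for Sox4 1383137_at (-2.20 ± 0.31), 1384000_at (-1.75 ± 0.38) and 1373860_at (-2.64 ± 0.46), whose falls came late.

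**Figure D1:**
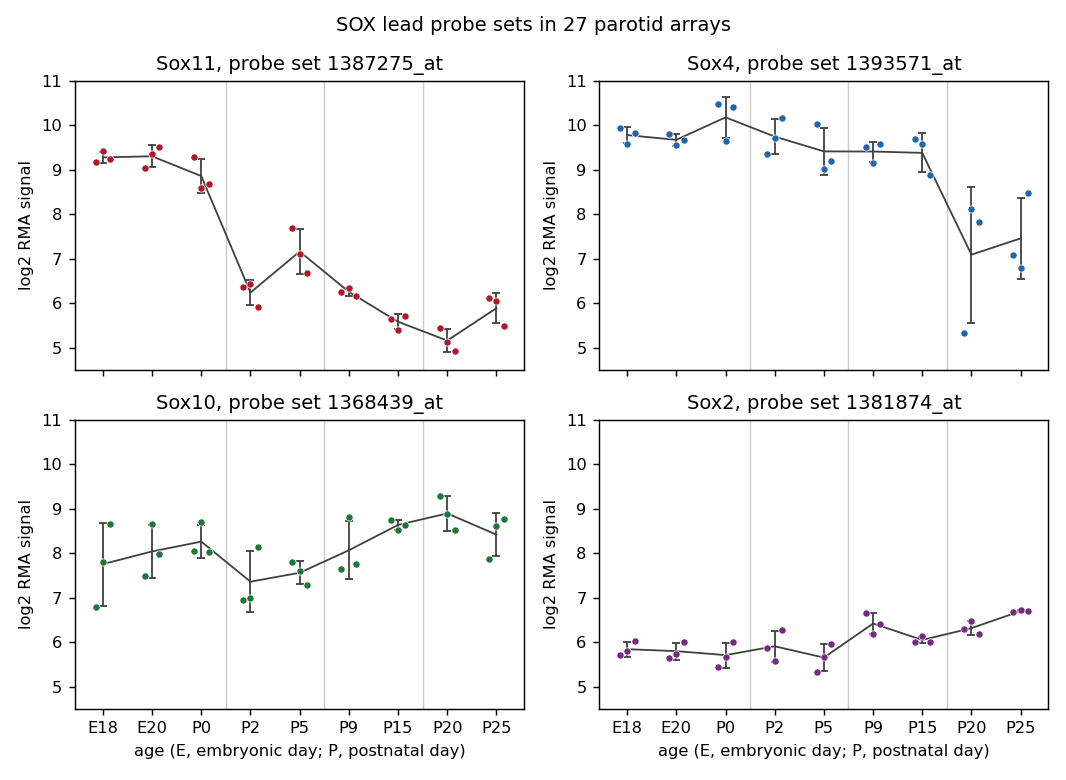
Log2 RMA signal of the lead probe set of each gene (the one with the highest mean over 27 arrays) against age. Points are single arrays, lines join the age means, bars are SD over 3 arrays and grey lines separate the stages. Sox11 dropped between P0 and P2 and Sox4 between P15 and P20. Sox2 had higher means from P9 on than before, and Sox10 showed no called change.

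Sox11, a C group factor of embryonic precursors, had the deepest fall of the members. Its signal was 9.17, 9.42 and 9.25 at E18, 9.04, 9.36 and 9.52 at E20, and 9.29, 8.60 and 8.68 at P0. It was 6.36, 6.43 and 5.92 at P2, 7.70, 7.10 and 6.69 at P5, and 6.26, 6.34 and 6.16 at P9. It was 5.64, 5.39 and 5.71 at P15, 5.44, 5.12 and 4.92 at P20, and 6.12, 6.05 and 5.49 at P25. All 9 arrays up to birth lay above all 18 later ones, and the highest later array was from P5.

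The fall of Sox11 was concentrated between birth and P2. P2 averaged 6.24 ± 0.28 and P0 8.86 ± 0.38 (SD, n = 3 each), a change of -2.62 ± 0.26 (± SE) or 6.16-fold lower at P2, with an adjusted p of 7.68e-06 by limma. It was the 1 member called in that step, in which 0.0709% of all probe sets fell. Stage 2 against stage 1 gave -2.45 ± 0.17 (adjusted p = 7.50e-09), again the 1 member of 13 called down, against 1.33% of all probe sets, and no member was called up, against 1.63%. That is 5.46-fold lower in stage 2. The call held in all 39 alternative fits, with changes between -2.59 and -2.33. These included the fits with cartilage, glial or muscle, epidermis and cartilage markers as covariates. The epidermis covariate was the mean of hair follicle and epidermis genes that moved apart, as given above. It thus cannot decide the part of the genes that rose in stage 2, such as Krt25.

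After P2 the Sox11 signal moved less. The P5 mean of 7.16 was above the P2 mean of 6.24 with no overlap of the arrays, but that step did not pass the threshold. Stage 3 against stage 2 gave -0.78 ± 0.18 with an adjusted p of 0.0479, the 1 member called in a comparison where 0.48% of all probe sets fell and in which all of stage 3 came from dissected glands and all of stage 2 from cut heads. This second fall was fragile: the call was lost in 27 of 39 alternative fits, 21 of which left out 1 array, with an adjusted p of up to 0.476. Stage 4 against stage 3 gave -0.40 ± 0.19 (adjusted p = 0.19), and P25 lay 0.73 ± 0.26 above P20 (adjusted p = 0.177). In order of level E20, E18 and P0 came first, with overlapping neighbours, then P5, then P9, P2, P25, P15 and P20, whose neighbours in the order also overlapped.

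From end to end the Sox11 signal in stage 4 was 12.4-fold lower than in stage 1. Stage 4 averaged 5.52 and stage 1 averaged 9.15, a change of -3.63 ± 0.17 (adjusted p = 7.06e-13), and P25 against E18 gave -3.39 ± 0.26 (adjusted p = 1.17e-08). Over all probe sets the median shifted by 0.19 between stage 1 and stage 4, by 0.24 between E18 and P25 and by 0.10 between P20 and P25. Relative to those medians the Sox11 changes were -3.82 from stage 1 to stage 4 and -3.64 from E18 to P25.

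The genes with the most similar profile to Sox11 over the 27 arrays were Igf2bp2, an RNA-binding protein of fetal tissues (Pearson r = 0.965), Gpr15lg, a secreted chemoattractant (0.947), and Limd2, a LIM domain protein (0.944). These correlations describe arrays that share the same ages. Igf2bp2 had a mean of 8.68 at P0, 6.97 at P2 and 5.89 at P25. Gpr15lg had 11.30 at P0, 7.08 at P2 and 4.11 at P25. Limd2 had 7.81 at P0, 6.41 at P2 and 5.66 at P25. All 3 were thus lower at P2 than at birth, and from P15 on all 3 stayed below their P2 means.

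**Figure D2:**
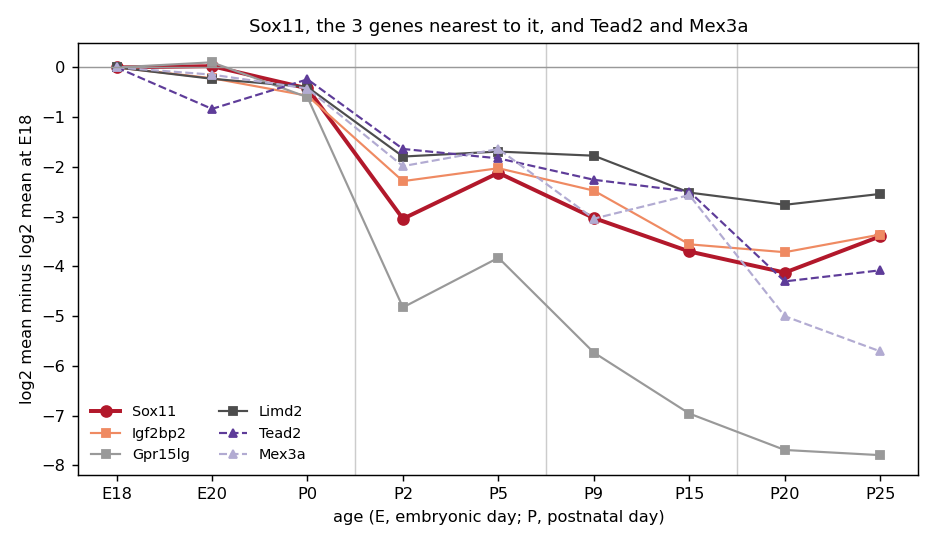
Change of the log2 mean from its E18 value against age for Sox11, the 3 genes nearest to it in profile, and 2 C group targets of other tissues, Tead2 and Mex3a (dashed). Sox11 had most of its fall between P0 and P2, while Tead2 and Mex3a dropped again between P15 and P20. The study had matched Tead2 to Sox11 on these same arrays.

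Sox4, also of the C group, gave readings that depended on the probe set. In stage 4 against stage 1 its 7 probe sets split into 4 called down, 2 called up and 1 not called. Over the 13 SOX probe sets 5 were called down, against 17.8% of all probe sets, and 3 up, against 27.2%, a share near that of all probe sets.

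The lead probe set 1393571_at kept a high signal until P15 and then fell. It read 9.94, 9.58 and 9.84 at E18, 10.48, 9.66 and 10.41 at P0, and 9.69, 9.57 and 8.88 at P15. At P20 it read 5.33, 8.12 and 7.82, and at P25 7.09, 6.79 and 8.49. Every array of P20 and P25 was below every earlier array, and P20 replicate 1 was far below the rest. Stage 4 against stage 3 gave -2.12 ± 0.37 (adjusted p = 0.000895), and without P20 replicate 1 it gave -1.68 and was still called. Stage 4 against stage 1 gave -2.61 ± 0.34 (adjusted p = 4.53e-06), a level 6.09-fold lower, or -2.80 relative to the median.

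Probe sets 1383137_at and 1384000_at also fell late, after a smaller decline. Their means were 9.84 and 8.95 at P0, and 8.98 and 7.87 at P15. Stage 3 against stage 2 gave -0.38 ± 0.17 and -0.50 ± 0.22, neither called. 1383137_at read 9.17, 9.56 and 9.81 at E18 and 9.25, 8.90 and 8.79 at P15, then 8.58, 8.02 and 8.23 at P20 and 6.36, 6.65 and 7.13 at P25. Its step from P20 to P25 was the 1 member call in that comparison, with a change of -1.56 ± 0.24 (adjusted p = 0.00269, or -1.66 relative to the median), where 0.689% of all probe sets fell. In stage 4 against stage 1 it changed by -2.09 ± 0.16 (adjusted p = 2.33e-09, or -2.28 relative to the median). 1384000_at read 8.30, 8.32 and 9.09 at E18 and 8.39, 7.79 and 7.43 at P15, then 6.76, 6.19 and 6.82 at P20 and 5.71, 5.90 and 6.24 at P25. It changed by -2.36 ± 0.20 between the same stages (adjusted p = 1.16e-08, or -2.55 relative to the median). For both, as for the lead, stage 4 lay wholly below stage 1 and stage 3, and the calls held in all 39 alternative fits.

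1373860_at had a hump at P9 before its fall. It read 6.95, 6.75 and 7.69 at E18, 8.70, 8.90 and 8.21 at P9, and 5.95, 6.26 and 6.67 at P25. The P9 mean of 8.60 was its highest and the P25 mean of 6.29 its lowest, with every P25 array below every E18 array. Stage 4 against stage 3 gave -1.52 ± 0.23 (adjusted p = 0.000249). Stage 4 against stage 1 gave -0.66 ± 0.21 (adjusted p = 0.0171, or -0.85 relative to the median), a call lost in 6 of 39 alternative fits. Thus 4 of the 7 Sox4 probe sets fell between stage 3 and stage 4. They were the only SOX members called in that comparison, in which 4.27% of all probe sets fell.

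The remaining Sox4 probe sets did not fall. 1383989_at, which had a mean of 7.83, above 77.1% of probe sets, read 7.08, 6.99 and 7.60 at E18, 7.95, 8.82 and 8.14 at P9, and 8.08, 8.24 and 8.08 at P25. It rose by 0.59 ± 0.18 in stage 4 against stage 1 (adjusted p = 0.0114, or 0.40 relative to the median), with stage 4 at 7.84 to 8.24 and stage 1 at 6.99 to 8.12. 1375123_at lay low on the array, with a mean of 3.89, above 15.4% of probe sets. Its call of 0.61 ± 0.23 (adjusted p = 0.035, or 0.42 relative to the median) rested on P25 replicate 1 at 5.71, beside 3.51 to 4.30 in the other stage 4 arrays, and without that array the change was 0.30 ± 0.16 (adjusted p = 0.146). 1375257_at, with a mean of 5.46, changed by 0.35 ± 0.17 (adjusted p = 0.0937, or 0.16 relative to the median).

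**Figure D3:**
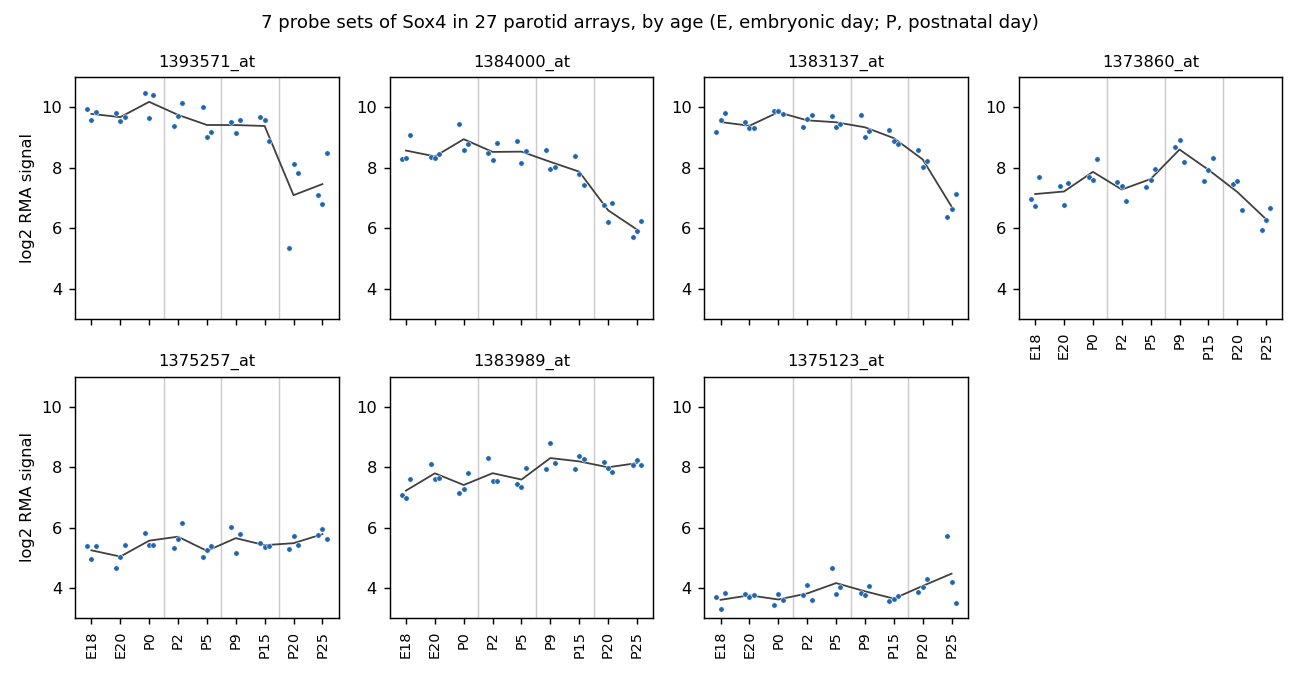
Log2 RMA signal of the 7 Sox4 probe sets against age. Points are single arrays, lines join the means of 3 arrays, and grey lines separate the stages. 3 probe sets on the upper row held until P15 and fell by P25, 1373860_at peaked at P9, and the 3 on the lower row ended level with or above their E18 values.

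Whether the probe sets of one gene differed in their change was tested directly. The disagreement of the Sox4 probe sets was known from earlier results of these data, so the tests give its size and are no independent evidence of it. For each of 27 pairs, 21 of Sox4 and 6 of Sox2, the difference between both signals was compared between the 6 stage 4 and 9 stage 1 arrays by a two-sided exact permutation test over 5005 regroupings, with p adjusted over the 27 pairs. 15 of 21 Sox4 pairs and 2 of 6 Sox2 pairs passed 0.05. The 3 late-falling probe sets 1393571_at, 1383137_at and 1384000_at did not pass against each other: the difference in change was -0.52 for 1393571_at minus 1383137_at, -0.25 for 1393571_at minus 1384000_at, and 0.27 for 1383137_at minus 1384000_at. Each of them passed against each of 1383989_at, 1375257_at and 1375123_at. The pairs with 1375123_at say little, because its stage 1 mean of 3.66 left little room for a fall of that size. The change of 1393571_at was 3.19 units below that of 1383989_at, for example, at the smallest p that these arrays can give (exact permutation p = 0.0001998, adjusted p = 0.00049). 1373860_at passed against all 6 others. Among 1383989_at, 1375257_at and 1375123_at no pair passed. Which transcripts each probe set reads is not given in the sources used here. A mean over all 7 hid the disagreement: it was 6.40 ± 0.13 at P25 and 7.30 ± 0.28 at E18 (SD, n = 3 each).

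The genes with the most similar profile to the Sox4 lead were Atl2, a membrane-shaping GTPase of the endoplasmic reticulum (r = 0.883 over 27 arrays), Vcan, the stromal proteoglycan versican (0.88), and Arxes1 (0.874). Vcan fell much further than Sox4, with means of 10.52 at E18 and 7.64 at P15, then 5.07 at P20 and 5.89 at P25. Arxes1 had means of 9.60 at E18 and 6.69 at P15, then 4.18 at P20 and 4.24 at P25. Atl2 had means of 8.79 at E18 and 8.42 at P15, then 7.62 at P20 and 6.95 at P25. Fibroblast markers were lower in stage 4 than in stage 1 as well, with the ranges given above, and their part in the Sox4 fall was not tested.

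Sox10, the E group factor of glia and of salivary acinar precursors, had a clear signal at every age, with a mean of 8.11, above 80.5% of probe sets. It read 6.80, 7.81 and 8.66 at E18, 6.95, 6.98 and 8.15 at P2, and 9.29, 8.89 and 8.52 at P20. The age means were 7.76, 8.04 and 8.26 at E18, E20 and P0, 7.36 and 7.56 at P2 and P5, 8.07 and 8.64 at P9 and P15, and 8.90 and 8.42 at P20 and P25. The lowest means were thus in stage 2 and the highest at P20, but neighbours in that order overlapped at every place. No Sox10 contrast passed the threshold in the fit to all arrays. Stage 2 against stage 1 gave -0.56 ± 0.28 (adjusted p = 0.371), stage 3 against stage 2 gave 0.89 ± 0.31 (adjusted p = 0.175; 1.08 ± 0.26 and adjusted p = 0.026 with array weights), and stage 4 against stage 1 gave 0.64 ± 0.28 (adjusted p = 0.0678, or 0.45 relative to the median). The last passed in 5 of the alternative fits, among them quantile normalisation (0.87 ± 0.29, adjusted p = 0.0236) and the fit without E18 replicate 3 (0.79 ± 0.26, adjusted p = 0.0206). The spread of Sox10 at E18, an SD of 0.93, was the widest of its 9 ages.

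Glial and pigment cell genes, which Sox10 controls in the neural crest, differed widely in level. Schwann cell and glia markers (6 of 10 listed genes measured) averaged 4.70 to 5.81 per array in stage 4, against 4.52 to 5.01 in stage 1. Mag, a myelin protein, lay between 2.05 and 3.76 in every array, near the lower end of the array's scale. Pmp2, another myelin protein, lay between 3.80 and 5.71, and Tyrp1, a pigment enzyme, between 2.58 and 5.23. Some listed genes had higher signals. S100b read 5.16 to 7.84 in stage 2, where the Sox10 means were lowest, against 3.52 to 6.17 in stage 1. It read 3.68 to 5.38 in stage 4. Mbp lay between 4.97 and 7.92 over all arrays. Pmp22, a myelin protein, had age means between 7.69 and 9.21, Mitf, the melanocyte factor, between 6.37 and 8.81, and Egr2 reached 10.41 at P5. These were named for their level, and whether their signal came from glia or pigment cells was not tested. Melanocyte markers were highest in P5 replicate 1 (7.81), in which Sox10 read 7.80. With the glial markers as a covariate the Sox10 change in stage 4 against stage 1 was 0.86 ± 0.31 (adjusted p = 0.0377). The genes most like Sox10 in profile were Sap30bp (r = 0.786 over 27 arrays), Elf5, an epithelial ETS factor (0.723), and Zfhx3, a zinc finger homeobox factor (0.716). These r were the lowest among the leading neighbours of the 4 genes.

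Sox2, the B group factor, had low signals. The lead probe set 1381874_at had a mean of 6.04, above 49.6% of probe sets, and 1379942_at, 1375153_at and 1389826_at had means of 4.11, 3.49 and 3.41, above 18.3%, 10.7% and 9.89%. The lead read 5.70, 5.80 and 6.02 at E18, 6.66, 6.19 and 6.40 at P9, and 6.68, 6.72 and 6.70 at P25. Its mean was 5.65 at P5, 6.42 at P9 and 6.05 at P15, so the path was not steady. The step from P5 to P9 was 0.77 ± 0.22 (adjusted p = 0.206 by limma, not called). It lies where the preparation changed from cut heads to dissected glands. The 6 arrays of stage 4 (6.18 to 6.72) lay above the 9 of stage 1 (5.45 to 6.02). The change was small, 0.73 ± 0.14 in stage 4 against stage 1 (adjusted p = 0.000412, or 0.53 relative to the median), 1.65-fold, and it held in all 39 alternative fits. P25 against E18 gave 0.86 ± 0.22 (adjusted p = 0.00589, or 0.61 relative to the median).

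The other Sox2 probe sets gave no call. In stage 4 against stage 1 they changed by -0.06 ± 0.29, 0.28 ± 0.18 and 0.34 ± 0.16 in the order named above, or by -0.25, 0.09 and 0.15 relative to the median. Under quantile normalisation 1375153_at turned to -0.05. The lead's change exceeded that of 1379942_at by 0.79 (exact permutation p = 0.00919, adjusted p = 0.0146) and that of 1389826_at by 0.38 (exact permutation p = 0.002997, adjusted p = 0.00578). 1379942_at stood at 6.49 in E18 replicate 1, against 3.52 to 4.62 in the other 26 arrays, and 1375153_at was also highest in that array (4.63), which was the highest of stage 1 for neuron and cartilage markers. The part of those tissues in these readings was not tested. The nearest profiles to the lead, Slc39a5, a zinc transporter (r = 0.935 over 27 arrays), Gipc3 (0.925) and Dspp, a tooth matrix protein (0.913), were of the same kind, with age means between 5.41 and 6.90.

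**Figure D4:**
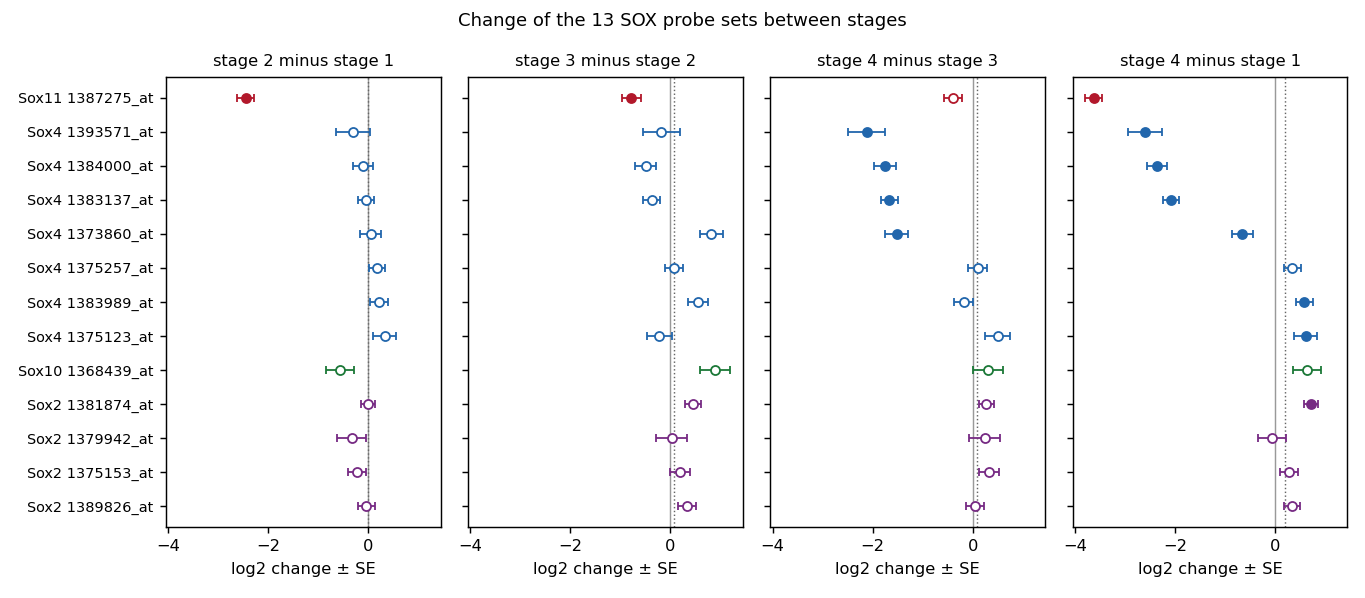
Log2 change ± SE of each of the 13 SOX probe sets between stages, later minus earlier. Filled points passed an adjusted p of 0.05, the solid line is 0 and the dotted line is the median of all probe sets. Sox11 moved from stage 1 to stage 2, 4 Sox4 probe sets from stage 3 to stage 4, and Sox2 and Sox10 stayed within 1 unit in every panel.

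Between birth and P2, where Sox11 fell by 2.62, the 3 late-falling Sox4 probe sets changed by -0.43, -0.27 and -0.42, none of them called. In P25 against E18, 4 members fell, against 13.4% of all probe sets, and 2 rose, against 20.1%. The falls were Sox11 and Sox4 1383137_at (-2.80 ± 0.24), 1384000_at (-2.62 ± 0.31) and 1393571_at (-2.33 ± 0.53). The rises were the Sox2 lead and Sox4 1383989_at (0.91 ± 0.28, adjusted p = 0.0163), and they were lost in 2 and 4 of the 39 alternative fits. In the 6 remaining steps between adjacent ages limma called no member. These steps called 0.0161% of all probe sets for E20 against E18, 0.0129% for P0 against E20, 0.00644% for P5 against P2, 0.029% for P9 against P5, 0.0612% for P15 against P9 and 0.358% for P20 against P15. At an unadjusted p of 0.05 between 0 and 4 of the 13 members passed in these 6 steps, and the fit without moderation called none in them either.

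Genes tied to the C group in other tissues moved with Sox4 and Sox11 in part. Changes of listed genes are given as fitted, before the median of 0.19 is taken off. Of 13 C group-linked genes 12 were measured, and in stage 4 against stage 1, 7 fell, against 17.8% of all probe sets, and 1 rose, against 27.2%, with a median change of -1.59 beside 0.19 for all. Tead2, a Hippo pathway factor and C group target in mouse, was 4.82 in stage 4 and 8.65 in stage 1, a change of -3.83 ± 0.22 (adjusted p = 3.06e-11). The study had already matched Tead2 to Sox11 on these arrays, so Tead2 is no independent evidence. Marcksl1, an actin-binding protein, changed by -3.33 ± 0.17, Mex3a, an RNA-binding protein of progenitors, by -5.16 ± 0.32, and Stmn1, a microtubule-destabilising protein, by -2.52 ± 0.18. The riser, named after its value was seen, was Tubb3, a neuronal tubulin (1.21 ± 0.40, adjusted p = 0.0174). In stage 2 against stage 1, when Sox11 fell, 3 of the 12 were called down, against 1.33% of all probe sets: Tead2 (-1.38), Mex3a (-1.62) and Marcksl1 (-0.75).

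Genes linked to Sox9 were measured although Sox9 itself was not, so their values say nothing of its level. Of 29 bud and progenitor genes 27 were measured, 16 fell and 3 rose in stage 4 against stage 1, where 17.8% of all probe sets fell and 27.2% rose, with a median of -1.08. Cdh1, the epithelial cadherin, changed by -1.59 ± 0.14, Lama5, a basement membrane laminin, by -2.64 ± 0.24, Trp63, the basal epithelial factor p63, by -2.85 ± 0.31, and Krt5, a basal keratin, by -3.06 ± 0.36. Basal and duct epithelium markers, which share Trp63 and Krt5 with this list, averaged 7.21 to 7.86 per array in stage 4, against 8.02 to 8.38 in stage 1. Of 12 measured cartilage targets of Sox9 5 fell and 1 rose, against the same 17.8% and 27.2%. They were led by Col9a1 (-4.62 ± 0.43), Col9a3 (-4.11 ± 0.39), Col2a1 (-4.35 ± 0.48) and Col9a2 (-2.05 ± 0.31), cartilage collagens. Cartilage and bone markers, which include Col2a1 and Col9a1, averaged 4.66 to 5.24 in stage 4, against 5.27 to 9.40 in stage 1, and the share of these falls that came from captured cartilage was not tested.

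**Figure D5:**
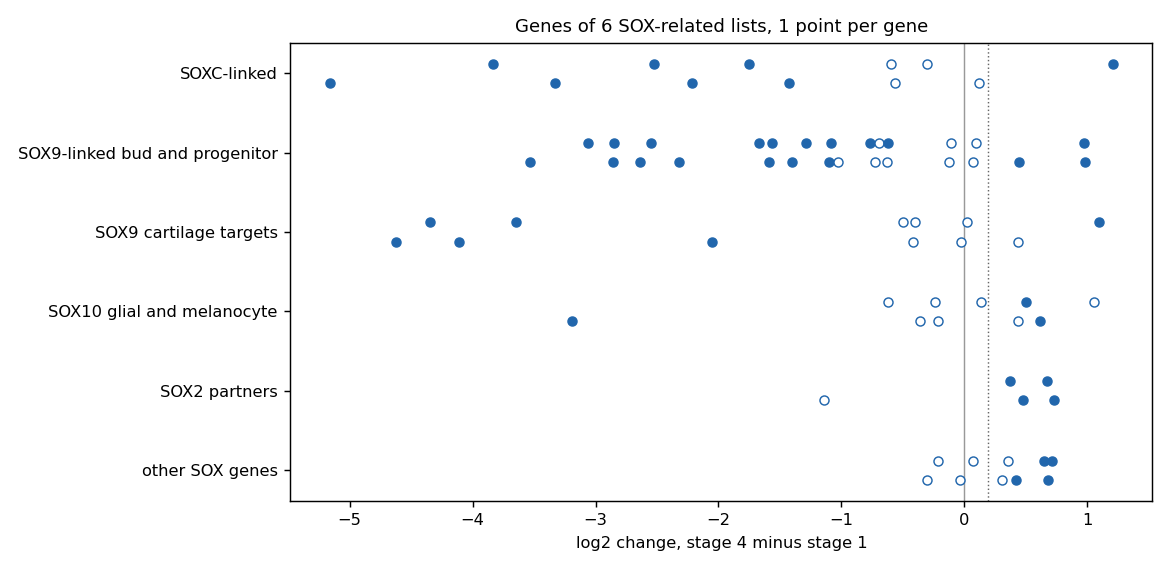
Log2 change in stage 4 against stage 1 for each measured gene of 6 SOX-related lists, 1 point per gene. Filled points passed an adjusted p of 0.05, the solid line is 0 and the dotted line the median of all probe sets. 7 of 12 genes linked to the C group and 16 of 27 bud genes fell, while no gene of the last 2 lists was called down.

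Of 10 measured glial and melanocyte targets of Sox10 2 rose and 1 fell, against 27.2% and 17.8% of all probe sets, with a median of -0.04 beside 0.19 for all. Egr2, a myelination and immediate early factor, changed by -3.19 ± 0.44, Foxd3, a neural crest factor, by 0.51 ± 0.14 and Tyrp1, a pigment enzyme, by 0.62 ± 0.25. Of 5 measured pluripotency partners of Sox2 4 rose by limma, against 27.2% of all probe sets, and none fell, against 17.8%; Klf4 had a change of -1.14 ± 0.64 that was not called (adjusted p = 0.152). Esrrb (0.73 ± 0.14), Lin28a (0.67 ± 0.18), Sall4 (0.48 ± 0.14) and Fgf4 (0.37 ± 0.13) were the risers, at stage 4 means between 3.37 and 5.40, low on the array as Sox2 was.

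Among the other SOX genes 10 were measured, none was called in stage 2 against stage 1, and in stage 4 against stage 1, 4 rose, against 27.2% of all probe sets, and none fell, against 17.8%, with a median of 0.33 beside 0.19 for all. Sox12, the remaining C group gene, had a change of -0.30 ± 0.65 that was not called (adjusted p = 0.724). The risers were Sox21 (0.65 ± 0.16), of the same B group as Sox2, Sox1 (0.72 ± 0.19), Sox13 (0.69 ± 0.23) and Sox17, an endothelial factor (0.42 ± 0.14). Their stage 4 means lay between 4.64 and 6.71, and whether their changes differed from those of Sox11 or Sox4 was not tested. The factors that the study placed in its network with Sox11, chosen on these arrays and so no independent evidence, included Xbp1, a factor of the secretory programme, which rose by 2.35 ± 0.19, Bhlha15, the acinar factor Mist1, which rose by 3.87 ± 0.33, and Egr1, an immediate early factor, which changed by -2.13 ± 0.24. Over the 9 ages the Xbp1 mean was 8.78 at E18, 9.42 at P0, 9.97 at P2 and 11.50 at P25, and that of Sox11 was 9.28, 8.86, 6.24 and 5.89 at the same ages.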

How the data were processed

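Total RNA of laser-captured acinar cells was amplified as a whole transcriptome, biotin-labelled and run on 27 Affymetrix arrays of rat genes. The authors deposited log2 values made by RMA, which corrects background, normalises between arrays and summarises probes; its software is not given in the sources used here. Of 31099 probe sets 57 controls were left out. Genes were taken from the platform's annotation, in which 20826 probe sets had 1 symbol, 436 several and 9780 none; sequences are RefSeq's on GRCr8. RMA has no detection calls, so low signals cannot be told from background.

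A limma model (3.58.1, R 4.3.3) with a mean for each age was fitted to all arrays, with moderated variances, 18 residual degrees of freedom and Benjamini-Hochberg adjustment over 31042 probe sets; tests are two-sided. The fit was tested on simulated data. Every member probe set is named, with the 3 genes of highest Pearson r per lead probe set and up to 4 called genes per list by size of t. The members and lists were chosen with earlier results of these data known. Alternatives were median centring, quantile normalisation, a low-signal filter, array weights, subsets of ages, a replicate block, covariates, no moderation and leaving out arrays. Array medians lay between 5.91 and 6.13, r between arrays of an age between 0.873 and 0.962. Precision is set by 3 arrays per age.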

Additional observations from a re-analysis of the deposited data

Results flagged for a closer look

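Of 52 sets of arrays, each 1 member probe set in 1 stage of 6 or 9 arrays, 4 held an array far from the others, where chance alone marks about 1 in 20. In stage 4 Sox4 1375123_at read 5.71 in P25 replicate 1, and the next highest array read 4.30. In stage 1 Sox2 1379942_at read 6.49 in E18 replicate 1, with 4.27 next. In the same array Sox2 1375153_at read 4.63, with 3.77 next, and in stage 3 it read 3.88 in P9 replicate 2, with 3.46 next. All 4 were upward readings of probe sets with mean signals below 4.2.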

How the results depend on the processing

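Of the 22 called changes of single probe sets, none turned its direction under any alternative, and 17 kept their call in all of them. Counts of called SOX probe sets moved by over 1.5 times in 3 comparisons. In stage 3 against stage 2 the count was 1 in the leading fit and 2 with array weights. It was 0 with only the arrays of the ages compared, with Xist minus Eif2s3y, cartilage, glial or the 3 sets of tissue markers as covariates, and without 4 arrays together (replicate 1 of E18, of E20 and of P0, with P5 replicate 2). Steps between adjacent ages gave 4 with array weights, against 2. Differences between probe sets of one gene gave 17 of 27 pairs, and 0 with P25 and E18 arrays only, where 3 against 3 arrays cannot pass. The cause of the other shifts was not tested.

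Leaving out 1 array gave 6 to 8 for the F test, 4 to 4 for the quadratic trend, 1 to 1 for stage 2 against stage 1, 0 to 1 for stage 3 against stage 2, 4 to 5 for stage 4 against stage 3, 6 to 9 for stage 4 against stage 1 (6 without P20 replicate 3), 5 to 8 for P25 against E18 (5 without E18 replicate 1), 2 to 3 for adjacent ages and 16 to 18 for the pairs. The replicate block changed no call, with 8 SOX probe sets in stage 4 against stage 1, as without it. Whether a replicate number marks anything shared across ages is not stated in the labels. Replicate 1 of E18, of E20 and of P0 was the highest of its age for muscle and for epidermis markers, as given above. Same-numbered arrays of different ages had a mean residual r of 0.03, against -0.01 for other numbers. Of the 27 arrays 16 correlated best with their own number. With the low-signal filter 4 members were not tested. Taking the mean over all probe sets moved the Sox4 level at E18 to 7.30 and the Sox2 level to 4.48. RMA signal keeps no depth, and members low on the array may not be above background.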
